A study of Homo sapiens with 33 samples.

Results

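A bivalent promoter carries H3K27me3, a mark of Polycomb repression, together with H3K4me3, a mark of active or poised start sites. Among the 34448 gene names on chromosomes 1 to 22 in the ChIP-seq table of H9 ESCs, a human embryonic stem cell line, 5130 had such a promoter in EZH2+/+ cells, and 3908 of these (76.2%) showed only weak binding of EZH2. The members were chosen by measured signal in EZH2+/+ cells. A promoter window, reaching 2.5 kb either side of a start site, had to exceed 5.35 RPM (reads scaled to the size of the library) for H3K27me3 and for H3K4me3 and to stay below 5.35 RPM in input chromatin. All passing windows of a gene then had to stay below 1.84 RPM of EZH2, which was 171 reads of the EZH2 library, and the window with the most H3K27me3 represented the gene. The other 1222 bivalent promoters, with more EZH2 in at least 1 window, are called the stronger-EZH2 promoters here. Windows of 1492 members (38.2%) overlapped the window of another member, and 72 (1.84%) overlapped that of a stronger-EZH2 promoter, so neighbouring genes share reads.

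The study disrupted EZH2 with CRISPR/Cas9. It compared parental EZH2+/+ ESCs, EZH2-/+ ESCs, EZH2-/- ESCs and EZH2-/- +EZH2 ESCs, in which doxycycline induces an EZH2 transgene. The study made EZH2-/- lines in cells carrying this transgene, and also obtained lines from which it was removed. The sample titles do not say which were profiled. Below, with or without the transgene means with or without its induction. Doxycycline exposure therefore differs between EZH2-/- and EZH2-/- +EZH2 ESCs, and its part was not tested. Each edited genotype descends from isolated colonies, and cells of all genotypes were grown on mouse feeder cells and sorted for the surface marker SSEA4. RNA-seq had 3 libraries per genotype, with 16.6 to 36.6 M reads on genes. ChIP-seq had 1 column per genotype and mark, each averaged by the authors over replicates. The low values fall on the steps of a mean of 2 libraries, fewer than the study's methods give, with 3.43 to 23.8 M reads on average, and EZH2 was 1 library of 93.2 M reads in EZH2+/+ ESCs alone, so no ChIP-seq difference carries replicate error or a test. In RNA, EZH2 lay between 59.5 and 68.6 RPM in the EZH2+/+ libraries, 45.7 and 55.4 RPM in EZH2-/+, 8.65 and 11.5 RPM in EZH2-/-, and 256 and 385 RPM with the transgene, whose reads are counted together with the gene. The summed RNA of 20 pluripotency genes was 3746 to 4576 RPM in EZH2+/+ and 4994 to 5848 RPM in EZH2-/+ libraries. It was 5291 to 6408 RPM in EZH2-/- libraries and 5085 to 6165 RPM with the transgene. By limma none of the 20 was called between EZH2-/- and EZH2-/- +EZH2 ESCs, 2 had an unadjusted p under 0.05, and limma voom called 0. That of 23 mesoderm markers was 230 to 508 against 150 to 209 RPM, with 10 called higher. That of 17 endoderm markers was 533 to 919 against 92.6 to 298 RPM, with 3 called higher, and 1 EZH2-/+ library reached 1007 RPM. Trophectoderm and amnion markers summed to 42.9 to 57.4 against 29.3 to 36.5 RPM, with 3 of 10 called higher. Ectoderm markers summed to 321 to 359 against 184 to 295 RPM, with 0 of 13 tested called higher or lower. Of all genes tested, 2.63% were called higher. The part of such cells in the RNA results below was not tested, and in bulk samples more cells of a type cannot be told apart from more RNA per cell.

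EZH2 is the catalytic subunit of Polycomb repressive complex 2 (PRC2), which methylates lysine 27 of histone H3. Its partners SUZ12 and EED are needed for that activity. EZH1 is a related enzyme that can partly take the place of EZH2 in mouse ESCs. In human ESCs the study reports EZH1 as present but not able to form such a complex. PRC2 gathers at CpG-rich promoters, and in ESCs its best known targets encode developmental transcription factors. Acetylation of the same lysine, H3K27ac, cannot coexist with its methylation on 1 histone tail and is typical of active promoters and enhancers.

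Promoters of 8 members show the DNA that the windows are centred on. They belong to the genes with the largest RNA changes and the highest RNA levels among those with a RefSeq entry (GRCh38.p14) whose start lies in the window. Each runs from 250 bases before to 50 after the RefSeq start, 5′ to 3′ on the strand of the gene, with CpG in capitals.

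ACTA2 (chr10:88991288-88991587, minus strand): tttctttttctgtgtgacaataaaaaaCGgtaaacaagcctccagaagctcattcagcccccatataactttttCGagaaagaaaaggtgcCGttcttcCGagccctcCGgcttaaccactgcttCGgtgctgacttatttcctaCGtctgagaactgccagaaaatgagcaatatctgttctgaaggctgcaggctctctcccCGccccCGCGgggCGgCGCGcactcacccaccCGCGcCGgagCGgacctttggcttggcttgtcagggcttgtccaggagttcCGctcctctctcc
ITGA11 (chr15:68432114-68432413, minus strand): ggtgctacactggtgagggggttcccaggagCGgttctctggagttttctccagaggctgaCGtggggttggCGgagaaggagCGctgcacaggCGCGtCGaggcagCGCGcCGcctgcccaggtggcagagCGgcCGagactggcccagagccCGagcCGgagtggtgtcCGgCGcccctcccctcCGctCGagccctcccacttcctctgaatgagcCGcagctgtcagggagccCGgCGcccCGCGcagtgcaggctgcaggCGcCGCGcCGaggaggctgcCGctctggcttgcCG
HPGD (chr4:174522439-174522738, minus strand): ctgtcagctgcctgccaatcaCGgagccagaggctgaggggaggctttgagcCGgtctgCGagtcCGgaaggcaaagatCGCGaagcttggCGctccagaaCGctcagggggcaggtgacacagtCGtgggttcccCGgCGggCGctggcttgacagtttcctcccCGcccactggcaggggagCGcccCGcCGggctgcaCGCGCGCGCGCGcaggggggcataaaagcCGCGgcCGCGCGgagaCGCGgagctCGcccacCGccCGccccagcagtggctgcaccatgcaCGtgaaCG
ATP12A (chr13:24680158-24680457, plus strand): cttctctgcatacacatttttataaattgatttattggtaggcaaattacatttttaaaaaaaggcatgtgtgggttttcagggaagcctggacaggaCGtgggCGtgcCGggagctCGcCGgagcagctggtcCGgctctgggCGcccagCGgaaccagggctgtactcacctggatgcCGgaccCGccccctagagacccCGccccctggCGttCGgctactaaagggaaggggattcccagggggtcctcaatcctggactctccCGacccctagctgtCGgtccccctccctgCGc
CHODL (chr21:18244583-18244882, plus strand): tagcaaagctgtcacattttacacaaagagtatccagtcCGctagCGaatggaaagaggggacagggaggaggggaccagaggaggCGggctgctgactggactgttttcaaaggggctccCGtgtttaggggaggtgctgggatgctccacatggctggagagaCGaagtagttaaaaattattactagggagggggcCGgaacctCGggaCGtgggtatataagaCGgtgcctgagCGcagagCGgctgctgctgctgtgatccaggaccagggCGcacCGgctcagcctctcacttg
AK7 (chr14:96391878-96392177, plus strand): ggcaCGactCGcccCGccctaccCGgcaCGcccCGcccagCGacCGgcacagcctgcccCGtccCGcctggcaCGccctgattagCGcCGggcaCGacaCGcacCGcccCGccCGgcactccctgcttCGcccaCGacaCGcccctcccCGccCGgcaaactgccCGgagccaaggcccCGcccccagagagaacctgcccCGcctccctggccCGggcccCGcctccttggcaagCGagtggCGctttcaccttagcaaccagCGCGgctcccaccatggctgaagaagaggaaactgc
BSG (chr19:571033-571332, plus strand): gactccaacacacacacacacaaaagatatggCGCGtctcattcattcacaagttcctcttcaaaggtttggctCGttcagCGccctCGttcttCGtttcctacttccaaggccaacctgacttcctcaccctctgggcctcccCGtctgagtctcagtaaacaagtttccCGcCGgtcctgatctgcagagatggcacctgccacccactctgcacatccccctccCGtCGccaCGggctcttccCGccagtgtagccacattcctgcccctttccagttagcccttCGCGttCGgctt
SEPTIN9 (chr17:77281249-77281548, plus strand): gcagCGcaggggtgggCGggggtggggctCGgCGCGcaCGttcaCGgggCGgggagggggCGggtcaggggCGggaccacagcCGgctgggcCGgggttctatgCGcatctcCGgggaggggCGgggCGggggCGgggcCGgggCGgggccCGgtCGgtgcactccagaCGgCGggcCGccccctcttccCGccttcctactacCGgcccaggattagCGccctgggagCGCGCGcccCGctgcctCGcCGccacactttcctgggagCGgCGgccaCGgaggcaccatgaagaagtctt

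The CpG count of these 300 bases ranged from 13 in CHODL to 36 in SEPTIN9. ACTA2 encodes smooth muscle actin, ITGA11 a collagen receptor, HPGD the enzyme that inactivates prostaglandins and ATP12A a proton pump, and all had more RNA in EZH2-/- than in EZH2-/- +EZH2 ESCs. CHODL, a membrane lectin, and AK7, an adenylate kinase of cilia, had less. BSG, a chaperone of lactate transporters, and SEPTIN9, a cytoskeletal GTPase, were among the members with the most RNA in EZH2+/+ ESCs. On either strand, TATAAA was found in the ATP12A promoter alone of the 8, and GGGCGG, the core of SP1 sites, in those of ACTA2, HPGD, ATP12A, AK7 and SEPTIN9.

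EZH2 in the chosen windows, which the choice of members used, had a median of 0.762 RPM (71 reads). Input in the same windows was at 1.38 RPM. The study describes input for its native histone ChIP, whereas EZH2 was profiled in crosslinked chromatin, so these levels cannot be compared. The median over all autosomal promoters was 0.29 RPM of EZH2 and 1.52 RPM of input, and 3723 members (95.3%) were above that median of all. The stronger-EZH2 promoters had a median of 3.06 RPM. At the limit the values ran on without a gap. By the highest EZH2 of any passing window, SLC27A6, LRRC3B, FBN2 and C15orf56 were just inside at 1.83 RPM each, whereas NOG, HEY1, CYP1B1 and MARCH9 were just outside at 1.85 RPM each. The lowest values were 0.0215 RPM at RP11-717F1.1, 0.0322 at bP-2171C21.3 and 0.0537 RPM at RP11-467L19.16.

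**Figure D1:**
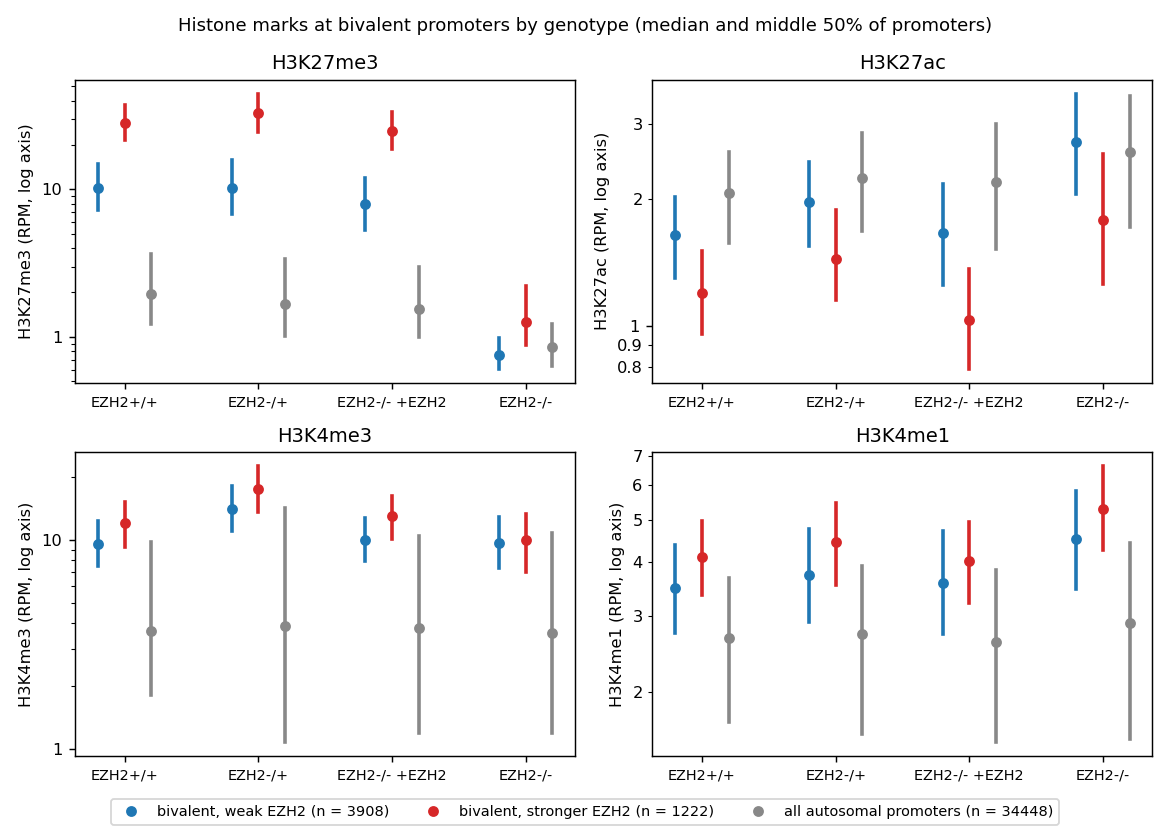
Median signal (point) and middle 50% of promoters (line) of 4 histone marks, in RPM on log axes, in EZH2+/+, EZH2-/+, EZH2-/- +EZH2 and EZH2-/- ESCs. Blue marks the 3908 weak-EZH2 bivalent promoters, red the 1222 stronger-EZH2 bivalent promoters and grey all 34448 autosomal promoters; H3K27me3 of the weak-EZH2 promoters is at 7.95 to 10.2 RPM in 3 genotypes and at 0.759 RPM in EZH2-/- ESCs.

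H3K27me3 was lost from nearly all members without EZH2, and returned with the transgene. The median was 10.2 RPM in EZH2+/+ ESCs, where it was part of the choice, and again 10.2 RPM in EZH2-/+ ESCs. It dropped to 0.759 RPM in EZH2-/- ESCs and was 7.95 RPM with the transgene. The comparison of EZH2-/- with EZH2-/- +EZH2 ESCs used no column of the choice. In it, the median log2 difference on log2(RPM + 0.1) was -3.23 at the members, -4.06 at the stronger-EZH2 promoters and -0.61 over all promoters. A log2 fall of at least 1 was seen at 3821 members (97.8%), and at 37.9% of all autosomal promoters. Scaled reads cannot show a change of the whole genome: promoters at or under 5.35 RPM of H3K27me3 in EZH2+/+ ESCs had a median difference of -0.38, and relative to them the members differed by -2.84.

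What was left in EZH2-/- ESCs was at or below input at most members. H3K27me3 exceeded input there at 421 members (10.8%) and at 645 stronger-EZH2 promoters (52.8%), with medians of 0.759 and 1.26 RPM. With the transgene, 2905 members (74.3%) were again above 5.35 RPM, as were 1215 (99.4%) of the stronger-EZH2 promoters. In EZH2-/+ ESCs these counts were 3444 (88.1%) and 1221 (99.9%). Members start closer to the limit, with a lower median in EZH2+/+ ESCs (10.2 against 28.4 RPM), and the shares depend on that distance.

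In a small group of windows H3K27me3 values were high without EZH2 as well. In EZH2-/- ESCs 31 members (0.793%) stayed above 5.35 RPM, as did 41 stronger-EZH2 promoters (3.36%). Values were higher than with the transgene at 37 members (0.947%), 3 stronger-EZH2 promoters (0.245%) and 25.6% of all autosomal promoters. The member with the highest value was MGC39584 at 42.2 RPM, followed by RP11-509A17.3 at 31.4, DUX4L4 at 22.3 and bP-2171C21.3 at 22.2 RPM. With the transgene the same windows were at 21.7, 16.6, 12.4 and 12 RPM, and in EZH2+/+ ESCs at 26.4, 18.1, 12.2 and 11.8 RPM. Input in EZH2-/- ESCs was 4.51, 3.92, 2.12 and 5.1 RPM there, above the member median of 1.38 RPM. DUX4L4 is 1 of many near-identical copies, so its reads could be placed elsewhere, and the mapping of the other windows was not tested. These 4 genes were listed at 0 RNA reads in all 12 libraries, and EZH2 was at 0.29, 0.15, 1.79 and 0.0322 RPM.

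H3K27ac was higher at most members in the absence of EZH2. Its median, 2.73 RPM in EZH2-/- ESCs, was 1.66 RPM with the transgene, 1.64 RPM in parental and 1.97 RPM in EZH2-/+ cells. Compared with EZH2-/- +EZH2 ESCs, 3710 members (94.9%) and 63.7% of all promoters were higher in EZH2-/- ESCs. The median log2 difference was 0.67 at the members, 0.70 at the stronger-EZH2 promoters and 0.16 over all promoters. A rise of 1 or more was seen at 688 members (17.6%), compared with 3.83% of all promoters.

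The members with the largest rise of H3K27ac on log2(RPM + 1) were RGS12, a regulator of G protein signalling, DLK2, a homologue of DLK1, DOCK2, an activator of RAC, CTB-107G13.1 and MBP, the myelin basic protein gene. RGS12 went from 1.97 RPM with the transgene to 6.36 RPM in EZH2-/- ESCs. DLK2 went from 0.855 to 3.21 RPM, DOCK2 from 0.783 to 2.99, CTB-107G13.1 from 0.472 to 2.3 and MBP from 1 to 3.41 RPM. Between EZH2-/- and EZH2-/- +EZH2 ESCs none of the 4 tested in RNA was called, and CTB-107G13.1 was listed at 0. Against EZH2+/+ ESCs, RGS12 fell (log2 fold change -0.86, limma adjusted p = 0.0055), and DOCK2 (1.23, limma adjusted p = 0.0075) and MBP (1.33, limma adjusted p = 0.0055) rose. RGS12 RNA ranged from 9.47 to 12.3 RPM without and from 9.87 to 14.2 RPM with the transgene, so the groups overlapped. The largest falls were at LINC00574 (1.74 to 0.717 RPM), ZNF717 (1.98 to 1.03) and RP11-467L19.16 (1.22 to 0.562), and the latter pair were among the members whose H3K27me3 was higher in EZH2-/- ESCs.

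H3K4me3 differed little. Its median at the members was 9.72 RPM without and 10.0 RPM with the transgene, a median log2 difference of -0.03 against 0.04 over all promoters. At the stronger-EZH2 promoters it was -0.36. It fell by 1 or more at 17 members (0.435%; 0.975% of all promoters) and rose by 1 or more at 2 (0.0512%; 0.653% of all). H3K4me1, typical of enhancers and promoter flanks, went from 3.57 to 4.51 RPM, with a median log2 difference of 0.31 against 0.12 over all promoters, and rose by 1 or more at 7 members (0.179%; 0.308% of all promoters). Input differed by a median of -0.05 at the members and -0.04 over all.

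The members were CpG-rich, and CpG content followed EZH2 among them. The count of CpG in the whole window had a median of 182 at the members, 259 at the stronger-EZH2 promoters and 107 over all autosomal promoters, and GC content 53.4%, 57.4% and 47.7%. In the 300 bases around the start, the medians were 27, 25 and 8 CpG. Split into 4 equal groups by EZH2, the members had median CpG counts of 141, 177, 202 and 225 per window from the lowest to the highest EZH2. Across the 3908 members Pearson's r of the CpG count with log2 EZH2 was 0.53, and with log2 H3K27me3 in EZH2-/- +EZH2 ESCs 0.06. These are descriptions across promoters that share libraries and partly overlap, and EZH2 was cut off by the choice of members.

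Motifs were counted in the 300 bases on both strands. GGGCGG was in 68.5% of the members, 61.9% of the stronger-EZH2 promoters and 35.9% of all autosomal promoters, which differ in GC content. TATAAA was in 5.55%, 7.53% and 13.3%, and CCAAT, the NF-Y core, in 24.0%, 26.9% and 33.5%. CCGGAAG, an ETS core, was in 5.48%, 3.52% and 7.00%. GCATGCGC, from the NRF1 site, was in 1.61%, 1.39% and 2.07%. CACGTG, the E-box of MYC and USF, was in 6.63%, 6.30% and 6.13%, and GAGAGA in 21.2%, 25.4% and 22.2%.

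RNA was detected from most genes of the set. Of the 3908, 3233 (82.7%) reached the mean of 0.1 RPM over 12 libraries that was needed for a test, as did 802 of the 1222 stronger-EZH2 genes (65.6%), and 179 members had no read in any library. Per kilobase of exon, the median level was 0.553 RPKM in EZH2+/+ ESCs (0.509 to 0.548 in the single libraries) for 3849 members with an annotated length, against 0.0899 RPKM for the stronger-EZH2 genes. It was 0.489 RPKM in EZH2-/- ESCs (0.444 to 0.512) and 0.406 RPKM with the transgene (0.389 to 0.402), and 37.6% of members reached 1 RPKM in EZH2+/+ ESCs, close to the 36.3% of autosomal genes without a bivalent promoter. Protein-coding genes made up 78.3% of these members, 69.8% of the stronger-EZH2 genes and 55.2% of all, and 770 of the members were lncRNA genes.

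The 5 members with the most RNA in EZH2+/+ ESCs were RPL7 (812 RPM), BEST1 (596), BSG (465), CCT3 (422) and SEPTIN9 (362). Reads were counted per gene without strand, and the promoter window need not be the one that is transcribed. BEST1 overlaps FTH1, the gene of the ferritin heavy chain, RPL7 overlaps RDH10 and CCT3 overlaps TSACC. EZH2 and H3K27me3 at the chosen windows were 1.31 and 5.67 RPM for RPL7, 0.15 and 10.1 for BEST1, 0.558 and 5.4 for BSG, 0.419 and 10.9 for CCT3, and 0.987 and 15.9 RPM for SEPTIN9. In EZH2-/- libraries RPL7 was at 622 to 742 RPM and in EZH2-/- +EZH2 libraries at 637 to 1189.5 RPM, and none of the 5 was called.

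A minority of these genes had higher RNA in EZH2-/- ESCs than with the transgene. Against EZH2-/- +EZH2 ESCs, 161 members were called higher and 17 lower in EZH2-/- ESCs (limma with Benjamini-Hochberg adjustment over 20608 genes, adjusted p under 0.05). This was 4.98% and 0.526% of the 3233 members tested, beside 2.63% and 0.524% of all genes tested, and the share of lower calls was that of the background. The median log2 fold change was 0.19 over the members and 0.02 over all genes tested. Among the stronger-EZH2 genes, 132 of 802 (16.5%) were called higher and 3 lower.

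These counts depend on single libraries. Leaving out EZH2-/- library 2 left 27 higher calls, 0.835% of the members beside 0.597% of all genes. Without EZH2-/- library 3, or EZH2-/- +EZH2 library 1, 2 or 3, there were 48, 76, 52 and 57 higher calls, and without EZH2-/+ library 3 there were 273. Lower calls then numbered 4, 4, 10, 4, 3 and 36, and 11 without EZH2+/+ library 2. Libraries with the same number deviated together, and a fit blocked on that number called 421 members higher and 85 lower, 13.0% and 2.63% of those tested, beside 6.19% and 3.21% of all genes. Of the 52 genes called and named below, all were called with the block, 12 without EZH2-/- library 2 and 11 under every alternative. These 11 were HPGD, ATP12A, SYK, CACNA1E, CHODL, GALNT16, DLL3, CLDN7, ITGA9, KLF5 and PLK2. Of the other 41, GRIA1 lost its call without EZH2-/- library 3 and the others without EZH2-/- library 2.

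Genes that rose included HPGD, which was at 26.1, 35.8 and 31.7 RPM in EZH2-/- libraries 1 to 3 and at 2.44, 3.91 and 2.88 RPM in those with the transgene. Its log2 fold change was 3.32 (standard error 0.49, limma adjusted p = 0.0042), and EZH2+/+ libraries were lower still at 0.524 to 1.24 RPM. ATP12A was at 4.26, 16.6 and 11 against 1.41, 0.831 and 0.56 RPM, a log2 fold change of 3.26 (standard error 0.43, limma adjusted p = 0.0028). SYK, a kinase of immune receptor signalling, was at 7.07, 9.54 and 6.98 against 0.926, 1.13 and 0.799 RPM (log2 fold change 2.92, standard error 0.40, limma adjusted p = 0.0031). In these 3 genes every EZH2-/- library was above all 9 others, which for the EZH2-/- +EZH2 libraries was part of the choice.

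ACTA2 had the largest fold among the members with at least 1 RPM on average and no overlap between the 2 genotypes, but its EZH2-/- libraries spread from 3.1 through 20.6 to 52.3 RPM, against 0.67 to 2 RPM with the transgene. Its log2 fold change was 3.73 (standard error 0.80, limma adjusted p = 0.025). The gene overlaps ACTA2-AS1, FAS and STAMBPL1, so reads cannot be assigned to a strand. ITGA11 was at 0.827, 15.6 and 3.44 against 0.231, 0.0536 and 0.36 RPM, and EZH2+/+ libraries, at 0.852 to 6.14 RPM, overlapped the EZH2-/- range. The next were LRRN4, a leucine-rich repeat protein of neurons, at 2.29 to 7.1 against 0.2 to 0.429 RPM, and LGR5, a receptor for R-spondins and a stem cell marker, at 6.05 to 17 against 0.643 to 0.879 RPM. MYOCD, the coactivator of smooth muscle genes, was at 1.57 to 9.05 against 0.214 to 0.36 RPM. SNAI2, a driver of epithelial-mesenchymal transition, was at 0.739 to 5.27 against 0.0804 to 0.411 RPM, and CACNA1E, a calcium channel, at 1.69 to 4.43 against 0.16 to 0.463 RPM. The log2 fold changes of ITGA11, LRRN4, LGR5, MYOCD, SNAI2 and CACNA1E were 3.70, 3.54, 3.34, 3.18, 2.99 and 2.86, with limma adjusted p from 0.0037 for CACNA1E to 0.041 for ITGA11. In ACTA2 and these 6 genes the highest value was that of EZH2-/- library 2, and LGR5 and MYOCD overlap other listed genes. Like ITGA11, SNAI2 (0.677 to 2.26 RPM) and CACNA1E (1.22 to 2.06 RPM) had EZH2+/+ libraries within the EZH2-/- range. None of the 3 was called between these genotypes. ITGA11 and CACNA1E, but not SNAI2, were called lower with the transgene than in EZH2+/+ ESCs. Their log2 fold changes were -3.27 (limma adjusted p = 0.034) and -2.26 (limma adjusted p = 0.0054). In ACTA2, EZH2+/+ library 2, at 4.11 RPM, was above EZH2-/- library 1. The gene was still called higher in EZH2-/- than in EZH2+/+ ESCs (log2 fold change 2.58, limma adjusted p = 0.027). In LGR5, EZH2-/+ library 2, at 6.72 RPM, was above EZH2-/- libraries 1 and 3.

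**Figure D2:**
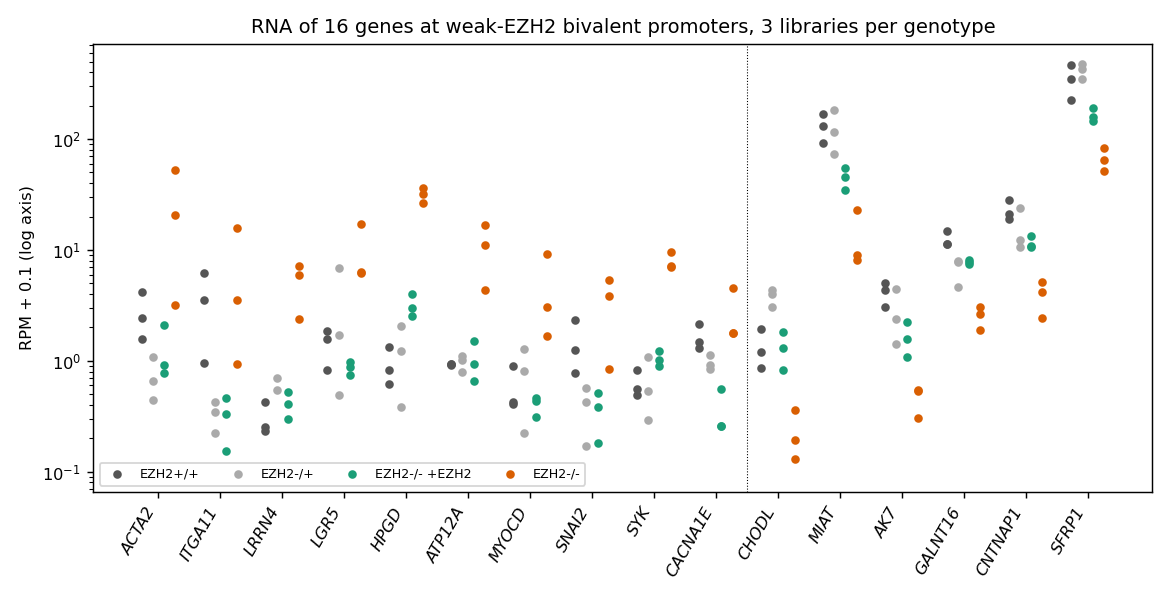
RNA of the 10 members that rose most and, right of the dotted line, the 6 that fell most in EZH2-/- against EZH2-/- +EZH2 ESCs, as RPM + 0.1 on a log axis. Each point is 1 library (3 per genotype); the EZH2-/- points of ACTA2 range from 3.1 to 52.3 RPM, those of HPGD from 26.1 to 35.8 RPM.

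The members that fell were fewer. GALNT16, a glycosyltransferase that starts O-linked chains, was at 2.94, 1.8 and 2.52 RPM in EZH2-/- libraries and at 7.38, 7.61 and 7.99 RPM with the transgene (log2 fold change -1.65, standard error 0.25, limma adjusted p = 0.0043), and at 11.1 to 14.9 RPM in EZH2+/+ libraries. CHODL was at 0.264, 0.0939 and 0.0297 against 0.72, 1.21 and 1.72 RPM (log2 fold change -2.58, standard error 0.43, limma adjusted p = 0.008). Its lowest EZH2-/- library held 1 read. Of the members named, it also had the most H3K27me3 left among those that changed, 3.23 RPM without and 4.14 RPM with the transgene against 16.2 RPM in EZH2+/+ ESCs, and its H3K4me3 was at 1.05, 2.29 and 7.4 RPM. SFRP1, a secreted WNT antagonist, was at 51.6 to 82.2 against 146 to 190 RPM, and MIAT, a long noncoding RNA, at 7.98 to 22.6 against 34.5 to 55.2 RPM. CNTNAP1, an axon-glia junction protein, was at 2.33 to 5.08 against 10.4 to 13.4 RPM, and AK7 at 0.206 to 0.445 against 0.977 to 2.12 RPM. In all 6 genes no EZH2-/- library reached the lowest EZH2-/- +EZH2 library, which was part of their choice. Every EZH2-/- library was below those with the transgene for 6.71% of tested members and 9.70% of all genes tested. The reverse held for 24.6% and 13.5%. GALNT16, CHODL, SFRP1, MIAT and CNTNAP1 each overlap another listed gene.

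By function, genes of the cell matrix and of adhesion had the highest numbers of calls, which depend on the size of a list. The actin and epithelial-mesenchymal list, at 3 of 13, had a higher share. Of 71 tested members of a list of extracellular matrix genes and their remodelling enzymes, 11 rose and 2 fell, and the median log2 fold change was 0.67. Of 90 tested genes of this list outside the set, 17 rose and 1 fell, so the rise was not particular to the members. ADAMTS18, a secreted protease, was at 0.369 to 2.7 against 0 to 0.103 RPM, TIMP3, an inhibitor of metalloproteinases, at 5.61 to 14.1 against 1.61 to 2.16, and the collagen genes COL8A1 and COL22A1 at 0.267 to 0.695 against 0 to 0.129 and at 3.89 to 6.55 against 1.26 to 1.8 RPM. The 2 that fell, named after their values were seen, were MATN2, a matrix adaptor protein, and the metalloproteinase MMP11. Of 57 cadherins, protocadherins and other adhesion genes tested, 9 rose, and CNTNAP1 fell, with a median of 0.18. Outside the set 4 of 121 listed adhesion genes rose. CLDN7, a tight junction protein of epithelia, was at 25, 41.3 and 45.4 against 4.96, 10.2 and 7.67 RPM (log2 fold change 2.29, standard error 0.32, limma adjusted p = 0.0031), and ITGA9, an integrin, at 8.92 to 19.4 against 2.4 to 2.73 RPM. ITGA8, another integrin, was at 0.194 to 1.58 against 0 to 0.0514 RPM. With EZH2-/- library 2 left out 1 matrix gene and 2 adhesion genes were called higher, and with the block 23 and 13 were. In EZH2-/- ESCs ITGA9 was not called against EZH2+/+ ESCs. With the transgene ITGA9 was lower than in EZH2+/+ ESCs (log2 fold change -1.29, limma adjusted p = 0.040). CLDN7, ADAMTS18, COL8A1 and COL22A1 were called higher in EZH2-/- than in EZH2+/+ ESCs.

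Among signalling genes, the BMP, Activin and TGF-beta list had 4 of 26 tested members higher. As for the other lists here, this is to be read beside the 2.63% of all genes tested that were called higher. They were BMPER, an extracellular modulator of BMP (2.53 to 10.7 against 0.386 to 1.76 RPM), the ligands BMP2 (16.4 to 27.5 against 4.27 to 7.51) and BMP4 (12.6 to 29.9 against 6.52 to 10.5), and TGFB3 (0.831 to 0.995 against 0.231 to 0.348). With the block 7 were higher, beside 6.19% of all genes, and without EZH2-/- library 2 none was, beside 0.597%. In EZH2-/- ESCs TGFB3 was not called against EZH2+/+ ESCs. With the transgene TGFB3 was lower than in EZH2+/+ ESCs (log2 fold change -0.999, limma adjusted p = 0.032). BMPER and BMP4 were called higher in EZH2-/- than in EZH2+/+ ESCs, and BMP2 was not called. The WNT list had WNT16 (0.229 to 1.99 against 0 to 0.0536 RPM) and LGR5 higher and SFRP1 lower among 21. Of 21 other growth factor genes, IGFBP5 and IGFBP7, which bind insulin-like growth factors, and the neurotrophin receptor NTRK3 rose. IGFBP5 was at 28.6 to 108 against 4.56 to 13 RPM, although EZH2+/+ libraries were at 67.3 to 161 RPM. It was lower with the transgene than in EZH2+/+ ESCs (log2 fold change -3.81, limma adjusted p = 0.0018). In the Notch and Hedgehog list 1 of 11 was higher, DLL3, a Notch ligand family member, at 12.1, 24.9 and 30 against 3.52, 2.71 and 3.72 RPM (log2 fold change 2.63, standard error 0.34, limma adjusted p = 0.0026). None of 16 FGF and ERK genes was called by limma or by limma voom, 7 had an unadjusted p under 0.05, and 3 were called with the block. EGR1 (71 to 153 against 54.5 to 176 RPM) and ETV4 (130 to 183 against 54 to 122 RPM) had the most RNA among them.

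Neuronal and transport genes made up 4 further lists, to be read beside the 2.63% of all genes tested that were called higher. Of 33 axon guidance genes tested, 4 rose and 1 fell, the semaphorin gene SEMA5B, named after its value was seen. Those that rose were the receptors PLXNA2 (18.5 to 37.4 against 2.68 to 6.3 RPM), NRP1 (3.75 to 13.7 against 0.804 to 2.52) and EPHB3 (8.44 to 14 against 2.47 to 4.22), and the membrane-anchored netrin NTNG1 (0.563 to 1.07 against 0.12 to 0.188). Of 63 potassium, sodium and calcium channel genes 4 rose, CACNA1E and the potassium channel genes KCNV1, KCNF1 and KCNK12. KCNK12 was the highest of these at 17 to 24.3 against 5.32 to 9.85 RPM, whereas KCNV1 was at 0.676 to 0.772 against 0 to 0.16 RPM. Of 49 neurotransmitter and peptide receptors 2 rose, the glutamate receptor GRIA1 (1.39 to 2.02 against 0.24 to 0.375 RPM) and the cannabinoid receptor CNR1 (2.67 to 4.92 against 1.03 to 1.37). Solute carriers had 3 of 73 higher. They were the iron exporter SLC40A1 (1.74 to 5.44 against 0.309 to 0.959 RPM), the amino acid transporter SLC7A7 (5.19 to 10.4 against 2.22 to 3.04) and SLC43A3 (14.2 to 15.9 against 8.58 to 8.79). With the block the 4 lists had 8, 8, 5 and 9 higher calls, and without EZH2-/- library 2 they had 0, 1, 1 and 0. In EZH2-/- ESCs neither EPHB3 nor GRIA1 was called against EZH2+/+ ESCs. With the transgene both were lower than in EZH2+/+ ESCs. Their log2 fold changes were -1.92 (limma adjusted p = 0.0039) and -1.94 (limma adjusted p = 0.0056). PLXNA2, NTNG1, KCNV1, KCNF1, KCNK12, CNR1, SLC40A1 and SLC7A7 were called higher in EZH2-/- than in EZH2+/+ ESCs.

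Most bivalent promoters of a list of developmental transcription factors lay outside the set. Its 369 genes are of the homeobox, SOX, FOX, T-box, GATA, PAX and bHLH families, with some zinc finger factors. Of these, 39 had a weak-EZH2 and 227 a stronger-EZH2 bivalent promoter. In the weak-EZH2 group 3 of 37 tested (8.11%) were higher, beside 2.63% of all genes tested. They were SNAI2, KLF5 (5.79, 11.2 and 6.53 against 1.23, 1.34 and 0.919 RPM) and KLF1 (0.281 to 0.683 against 0.0799 to 0.134). All are zinc finger factors outside the families named. Of 240 tested genes of this list outside the set, 58 rose and 0 fell, so the rise was not particular to the members. The log2 fold change of KLF5 was 2.61 (standard error 0.38, limma adjusted p = 0.0041). Of 33 C2H2 genes named ZNF tested 1 rose (3.03%), ZNF467 (1.72 to 2.38 against 0.616 to 0.951 RPM). Among germ layer and extraembryonic markers, 3 of 17 endoderm, 5 of 23 mesoderm, 1 of 20 ectoderm and 2 of 16 trophectoderm and amnion genes were members. CXCR4 (8.34 to 23.8 against 1.29 to 3.64 RPM) and SNAI2 were called higher, while SOX10 (2.67 to 3.56 against 1.62 to 3.24), TFAP2C (22 to 26.9 against 15.0 to 20.7) and KRT7 (2.73 to 4.1 against 2.25 to 2.72) were not.

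Lists of growth control and cell shape are likewise to be read beside the 2.63% of all genes tested that were called higher. Of 10 tested CDK inhibitors and p53 targets 1 rose, PLK2, a stress-responsive kinase, at 17.9, 35.3 and 19.1 against 4.71, 5.63 and 8.43 RPM (log2 fold change 1.90, standard error 0.31, limma adjusted p = 0.0075). Of 13 actin and epithelial-mesenchymal genes 3 rose, ACTA2, AHNAK and CDH1. AHNAK, a large scaffold protein, was at 46.5 to 114 against 18.5 to 24.3 RPM, and CDH1, the epithelial cadherin, at 105 to 128 against 43.6 to 59.5 RPM. In EZH2-/- ESCs AHNAK was not called against EZH2+/+ ESCs, whereas CDH1 and PLK2 were called higher. With the transgene AHNAK was lower than in EZH2+/+ ESCs (log2 fold change -1.95, limma adjusted p = 0.0040). Of 125 kinase, phosphatase and small GTPase genes 1 rose (0.8%), RGS16 (9.99 to 16 against 5.04 to 6.53 RPM). With the block 16 rose and 8 fell, 12.8% and 6.4%, beside 6.19% and 3.21% of all genes. None of 8 Polycomb genes in the set was called by limma or by limma voom, and 1 had an unadjusted p under 0.05, while 1 was called lower with the block. Against EZH2+/+ ESCs 5 of the 8 were lower in EZH2-/- ESCs, PHC2 among them, beside 18.8% of all genes tested. KDM2B, which binds unmethylated CpG for PRC1, was at 52.3 to 65.9 against 50.1 to 63.1 RPM, and PHC2 at 18.9 to 25.1 against 17.8 to 28.2 RPM, with overlapping libraries in both.

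The gain of H3K27ac was not limited to members whose RNA was called higher. Its median log2 difference was 0.79 at the 161 called higher, 0.75 at the 17 called lower, 0.66 at the 3055 not called and 0.70 at the 675 with too little RNA to test. It was above 0 at 158 of the 161 and 16 of the 17. A rise of 1 or more was seen at 44 (27.3%), 1 (5.88%), 507 (16.6%) and 136 (20.1%). Members called higher had a median H3K27me3 of 10.3 RPM with the transgene, against 7.56 RPM at those not called, and lost it to 0.782 and 0.759 RPM. Across the 3233 tested members Pearson's r between the H3K27ac difference and the RNA log2 fold change was 0.15, a description across genes of shared libraries.

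**Figure D3:**
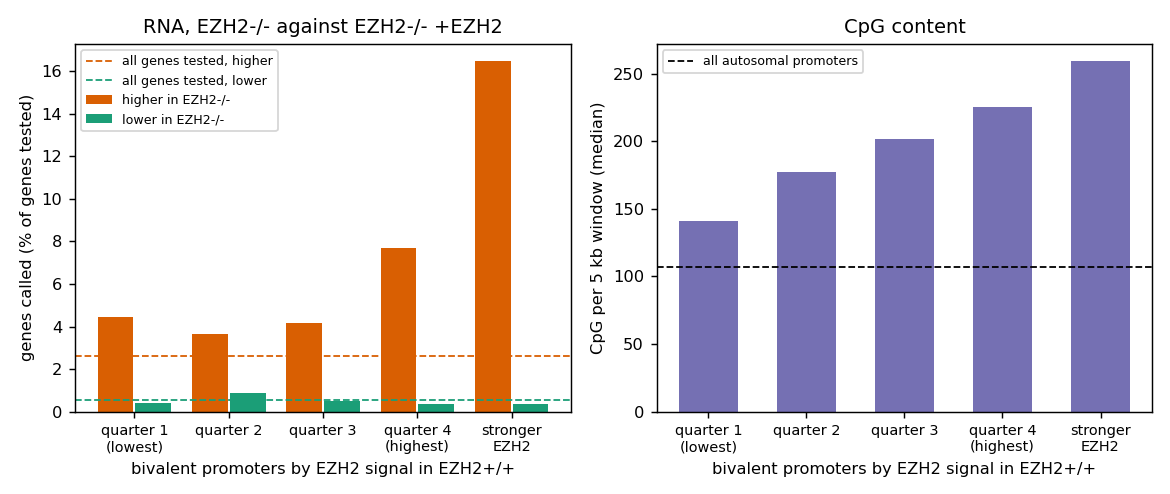
Left, share of tested genes called higher or lower in EZH2-/- against EZH2-/- +EZH2 ESCs in 4 equal groups of weak-EZH2 promoters by EZH2 signal and in the stronger-EZH2 promoters, with dashed lines for all genes tested. Right, median CpG per window in the same groups (bars) and over all autosomal promoters (dashed line); higher calls go from 4.44% in the lowest group to 7.69% in the highest and 16.5% beyond the limit.

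Higher RNA calls were also counted by EZH2 signal, a value that the choice of members used. From the lowest to the highest EZH2, the 4 equal groups spanned 0.0215 to 0.526, 0.526 to 0.773, 0.773 to 1.07 and 1.07 to 1.83 RPM, and 34 of 766, 30 of 821, 35 of 840 and 62 of 806 tested genes were called higher, or 4.44%, 3.65%, 4.17% and 7.69%. Median H3K27me3 with the transgene was 5.74, 6.86, 8.55 and 12.8 RPM. Without EZH2-/- library 2 the counts were 5, 7, 3 and 12, and with the block 83, 93, 98 and 147. The H3K27ac difference changed less, from 0.61 through 0.67 and 0.67 to 0.72. EZH2 defines these groups, and the differences between them were not tested.

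Relative to EZH2+/+ ESCs, the picture was broader and less one-sided. In EZH2-/- ESCs 547 members were called higher and 659 lower, 16.9% and 20.4% of those tested, beside 12.6% and 18.8% of all genes. The median log2 fold change was -0.07 at the members and -0.13 over all genes tested. In EZH2-/- +EZH2 ESCs 105 were higher and 420 lower than in EZH2+/+ ESCs, 3.25% and 13.0%, beside 3.4% and 6.9% of all genes, with medians of -0.26 and -0.15. With the block these were 205 and 755. Leaving out EZH2+/+ library 1 or 2, or EZH2-/- +EZH2 library 1 or 2, gave 43 to 55 higher and 182 to 240 lower calls. The 3 comparisons share libraries, so their calls are not independent of each other. The part of the EZH2 level with the transgene in these calls was not tested.

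Among pluripotency genes, TDGF1, an EGF-CFC coreceptor of NODAL, and PRDM14, a transcription factor, were members. TDGF1 was at 60.6 to 73 RPM in EZH2+/+, 110 to 225 in EZH2-/+, 279 to 303 in EZH2-/- and 227 to 253 RPM in EZH2-/- +EZH2 libraries. In EZH2-/- against EZH2+/+ ESCs its log2 fold change was 2.12 (limma adjusted p = 4.1e-05), and that of PRDM14 1.44 (limma adjusted p = 0.0048). H3K27me3 at TDGF1 was 11.2 RPM in EZH2+/+ ESCs and already 2.07 RPM in the heterozygous cells, against 1.86 RPM without EZH2 and 1.26 RPM with the transgene. At PRDM14 these values were 7.24, 3.21, 1.23 and 2.41 RPM. From EZH2+/+ to EZH2-/- +EZH2 ESCs a log2 fall of at least 1 occurred at 330 members (8.44%), against 5.79% of all autosomal promoters. This comparison includes a column of the choice.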

How the data were processed

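The authors trimmed reads with Trim Galore 0.4.0 and aligned them to GRCh38 with Bowtie2 2.2.5 (ChIP-seq) or TopHat2 2.0.12 (RNA-seq). In RNA-seq they counted reads per gene (Ensembl 70) without strand, in ChIP-seq non-duplicated reads per 5 kb window, and the authors deposited log2 RPM of both. Values were returned to RPM, and genes without a read (0.9 of a read in the table) were set to 0. Below 1000 reads 100% of RNA values were whole reads within 0.02. Depth sets the precision: 3 reads equal 0.0528 to 0.12 RPM in RNA libraries. By their low values, ChIP-seq columns average 2 libraries on the log2 scale, although the methods of the study give 3 biological replicates, so they were compared without a test. RNA was tested with limma 3.58.1 (trend, R 4.3.3) on log2(RPM + 0.1) over all 12 libraries and the 20608 of 35805 genes averaging 0.1 RPM or more. The fit was tested on simulated data. The labels do not say that libraries are separate cultures, so p values measure the spread between them. The study names no pairing, but all 18 pairs of same-numbered libraries deviated together (r 0.107 to 0.56), hence the block.

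The members and gene lists were chosen with earlier results of these data known. Named genes are the 10 largest rises and 6 largest falls called, averaging 1 RPM or more, without overlap, the 5 largest rises and 3 largest falls of H3K27ac, the 4 genes either side of the EZH2 limit, the 5 highest in EZH2+/+ RNA, the 3 lowest in EZH2, the 4 highest in EZH2-/- H3K27me3 and, per list, up to 4 called or the 2 highest. Members were matched to RNA by Ensembl ID, and lengths came from GENCODE 44. RefSeq promoters existed for 67.7% of members, too few for their sequence features, so CpG and motifs were read from GRCh38 at the window centres. This replaced the planned use of the RefSeq table.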

Additional observations from a re-analysis of the deposited data

How the results depend on the processing

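Of 151 alternatives to the main counts and medians, 112 stayed close to them. None of the medians changed direction, and counts of calls have no direction to change. For EZH2-/- against EZH2-/- +EZH2 ESCs, the 161 higher and 17 lower calls became 86 and 11 for genes averaging 1 RPM or more, 78 and 5 with limma voom on recovered reads and 421 and 85 with the replicate block, and lower calls were 10 with only the 6 libraries compared. All 161 and all 17 were among the calls of the block. Leaving out 1 library gave 27 to 273 higher and 3 to 36 lower calls. For EZH2-/- +EZH2 against EZH2+/+ ESCs, the block gave 205 higher and 755 lower, and leaving out 1 library gave 43 to 154 higher and 182 to 530 lower calls. For EZH2-/- against EZH2+/+ ESCs all counts stayed within 1.5 times. The block kept all 52, 44 and 17 calls of named genes in the 3 comparisons. With a pseudocount of 1 RPM, the median difference was -2.33 for H3K27me3, 0.47 for H3K27ac, 0.26 for H3K4me1 and -0.029 for input. Centred on promoters without H3K27me3, it was -2.84, 0.59, 0.24 and -0.0049, and -0.10 for H3K4me3. Of 979 pairs of a gene called in the first comparison and an alternative, 711 kept the call, 268 lost it and 0 changed sign. The cause of these changes was not tested. The single ChIP-seq value per genotype limits what marks can show, and 675 members had too little RNA to test.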
